A study of Homo sapiens with 24 samples.

Results

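The miRNAs described here are the mature products of 7 hairpins, as they were found bound to Ago2. Those of miR-320a, miR-484, miR-877 and miR-1226 have been reported to be made without the nuclear RNase Drosha. Those of miR-320b, miR-320c and miR-320d were included as members of the miR-320 family. Ago2 is the Argonaute protein that holds a miRNA and carries it to its target RNAs. The hairpins were chosen by name, and all 7 had a row in the miRNA table: 9 of its 1000 mature entries belonged to them. They were picked with the difference between treatments in view, so the values of that difference are a description and were not tested. The study used 293S cells, an established line of the HEK293 lineage (human embryonic kidney), kept as an adherent layer and either left untreated or given sodium arsenite at 1 mM for 30 min. Arsenite reacts with thiols, blocks translation initiation and induces stress granules. Ago2 was crosslinked to RNA and immunoprecipitated from 4 untreated and 4 arsenite-treated biological replicates, and the band called LO, from which the abundance of miRNAs was measured, was sequenced apart from the band of the target RNAs. All cells were of this 1 line, and the immunoprecipitate holds only miRNAs on Ago2, so fewer copies of a miRNA in the cell and less of it on Ago2 cannot be told apart.

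Most miRNAs are cut from a long primary transcript by Drosha and its partner DGCR8, and the released hairpin is then cut by Dicer and loaded on Argonaute. Mirtrons such as miR-877 and miR-1226 take another route: the spliceosome cuts out a short intron that is itself the hairpin. The precursors of miR-320a and miR-484 have been reported to start at the transcription start and to carry a 5' cap, so that neither end needs Drosha, and they leave the nucleus through XPO1 rather than XPO5. The data hold no measurement of the processing route, and the name of the group rests on that background. No route is given here for miR-320b, miR-320c and miR-320d.

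The sequences show which members can be told apart and what ties them to their route. They are given 5' to 3' from RefSeq on GRCh38.p14, which held 8 of the 9 members and lacked miR-320a. Capitals mark the seed, bases 2 to 8, which pairs with targets.
miR-320b: aAAAGCUGgguugagagggcaa
miR-320c: aAAAGCUGgguugagagggu
miR-320d: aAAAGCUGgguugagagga
miR-320e: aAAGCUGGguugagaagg
miR-484: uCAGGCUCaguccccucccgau
miR-877-5p: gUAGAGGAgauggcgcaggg
miR-877-3p: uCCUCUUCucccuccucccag
miR-1226-3p: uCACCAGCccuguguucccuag
miR-1226-5p: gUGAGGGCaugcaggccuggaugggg

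miR-320b, miR-320c and miR-320d had the same seed. miR-320b and miR-320c shared their first 19 bases, and miR-320d, which is 19 bases long, shared its first 18 with both. A read trimmed to 18 bases cannot be given to 1 of these 3, and how the authors divided such reads is not given in the sources used here. Their loci differ: the mature part of miR-320b lies on chromosome 1 (116671787 to 116671808, plus strand, and 224257049 to 224257070, minus strand), that of miR-320c at 2 loci on chromosome 18, and that of miR-320d on chromosome 13 and on the X chromosome. miR-320e, which is outside the rule, starts 1 base further in, so its seed is that of miR-320b moved by 1 base. The sequence of miR-320a was lacking, so whether its reads can be told apart from those of miR-320b, miR-320c and miR-320d was not examined. miR-320a outnumbered miR-320b by 10.6 to 1 and miR-320d by 218 to 1 in untreated cells. How far reads of miR-320a entered the counts of the others was not tested. Beyond the family, the seed of miR-320b was shared only by miR-4429 among the 2370 mature names in the RefSeq table, and that of miR-484 by miR-3155a and miR-3155b. The remaining 4 members each had a seed of their own.

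The hairpins of miR-877 and miR-1226 are shown whole because their ends carry the mirtron signature, a GU at the start and an AG at the end, as at the ends of an intron. Capitals mark those bases.
MIR877: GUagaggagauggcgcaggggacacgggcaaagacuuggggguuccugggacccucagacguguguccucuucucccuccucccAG
MIR1226: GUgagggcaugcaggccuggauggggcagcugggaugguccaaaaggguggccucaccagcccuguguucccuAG

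MIR877 is at chr6:30584332-30584417 on the plus strand, within the gene ABCF1, and MIR1226 at chr3:47849555-47849629 on the plus strand, within DHX30. In RefSeq, miR-877-5p and miR-1226-5p began at base 1 of their hairpins, and both 3p arms ended at the last base. Of 1562 hairpins in the table, 36 (2.30%) began with GU and ended with AG. The hairpin of miR-484 (mature part at chr16:15643301-15643322, plus strand) began with AG and ended with CG, and its mature part covered bases 8 to 29 of 79. The mature part of miR-320b was on the other arm, at bases 42 to 63 of 72 in MIR320B1. NDE1 is the protein-coding gene nearest to MIR484, and POLR3D that nearest to MIR320A.

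The miRNA table gives the authors' mean for each treatment, that is reads divided by a size factor for depth and averaged over 4 libraries. These means are sums of whole reads, each worth a fixed step in its library, and the 4 steps of each treatment could be read from the lowest values. For 7 of the 9 members, this gave the reads in each of the 8 libraries. hsa-miR-484 and hsa-miR-320a are too abundant for that, and only their means are known. Libraries are numbered 1 to 4 within a treatment from the largest to the smallest size factor, and these numbers are not the replicate numbers of the labels. Size factors ran from 0.793 to 1.32 over the 8 libraries. For none of the 7 did all arsenite libraries lie above all untreated ones (0.980% of the 408 mature miRNAs with recovered reads and a mean of at least 20) or below them (1.23%). All 7 overlapped between treatments.

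The libraries were not equally alike. Over the same 408 mature miRNAs, 4 libraries (untreated 1 and 2, arsenite 1 and 4) correlated closely with each other, with Pearson's r of 0.911 to 0.940 over 6 pairs on the log2(normalized reads + 1) scale. The other 22 pairs had r of 0.753 to 0.827. Over the 211 miRNAs with a mean of at least 100 the gap was narrow. There the 6 pairs had r of 0.928 to 0.957 and the other 22 pairs 0.732 to 0.911. The remaining libraries were not a close set of their own, with r of 0.785 to 0.823 between them over the 408. These are correlations across miRNAs of 1 table. The split does not follow treatment, the labels give no batch that matches it, and its cause was not tested. Values are therefore also given within the closely correlated set and within the other set (untreated 3 and 4, arsenite 2 and 3), each with 2 libraries per treatment. This split was made after the data had been examined.

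**Figure D1:**
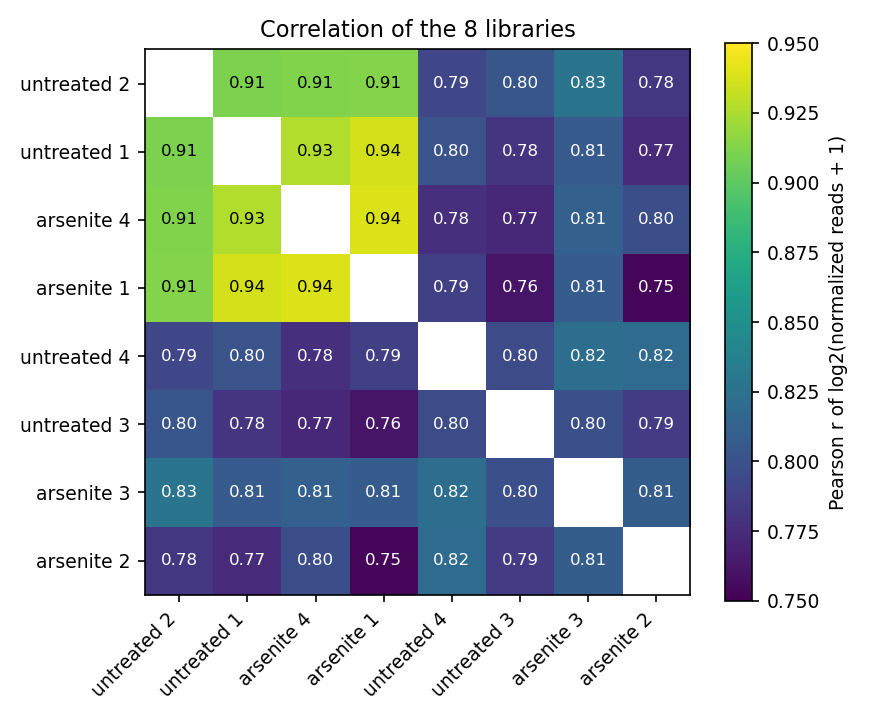
Pearson's r between each pair of the 8 LO band libraries, over 408 mature miRNAs on the log2(normalized reads + 1) scale, with the 4 closely correlated libraries first. Their pairs lie at 0.911 to 0.940 and all other pairs at 0.753 to 0.827.

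The members were minor cargo of Ago2. Together they held 0.0926% of the summed means of mature miRNAs in untreated cells and 0.0991% with arsenite. Their sum was 17000 untreated and 17291 with arsenite, a log2 ratio of 0.02. miR-484 ranked 88 among 1000 mature miRNAs by mean and miR-320a ranked 97, while miR-877-5p ranked 172, miR-320b 228 and miR-1226-3p 238. The others ranked from 424 (miR-320c) to 653 (miR-877-3p).

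No member passed the authors' test of the treatments. An adjusted p under 0.05 in the authors' deposited DESeq table was given for 0 of the 9 members and 0 of all 1213 entries (0%). At an unadjusted p under 0.05 there were 0 members and 24 entries (1.98%). Of the 8 members with a mean of at least 20, 5 had a log2 fold change above 0, where 51.8% of the 577 mature miRNAs at that level did. The median of the 8 was 0.25, beside 0.02 for all 577. It was 0.0596 without the miR-320 members and 0.14 without untreated library 4. At least 1.2-fold higher with arsenite were 4 of the 8 (21.3% of the 577), namely miR-877-5p, miR-320b, miR-1226-3p and miR-320d. At least 1.2-fold lower was 1 of the 8, miR-1226-5p (25.0% of the 577). Since the members were chosen from this contrast, nothing is read from these counts.

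**Figure D2:**
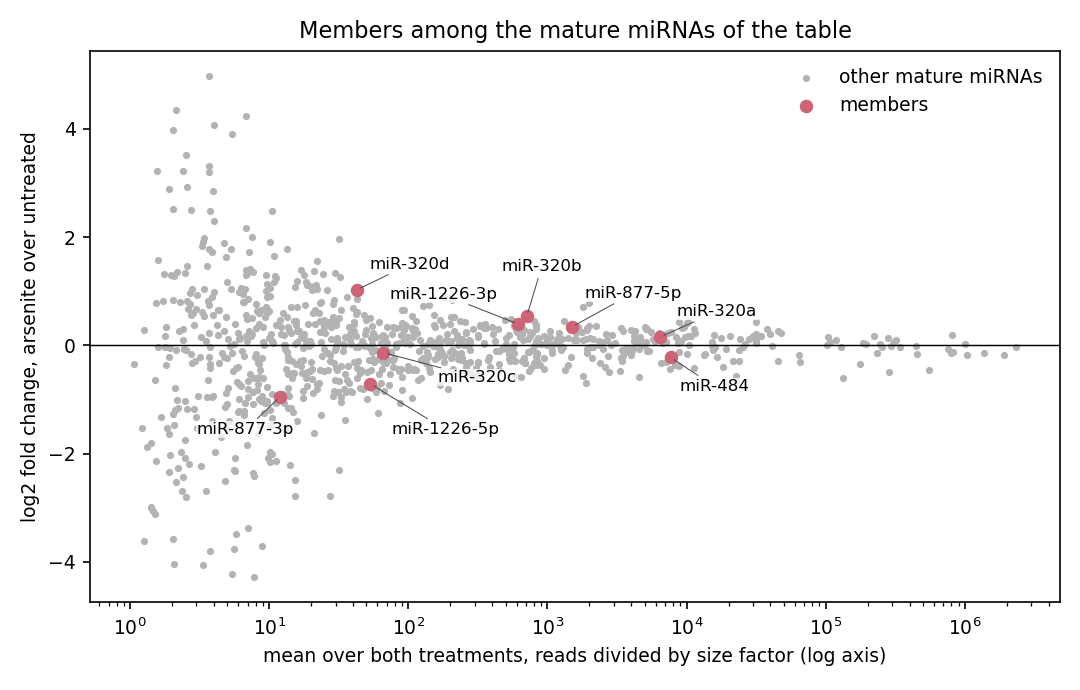
Log2 fold change of arsenite over untreated against the mean over both treatments (log axis) for mature miRNAs with a mean of at least 1 and reads in both treatments, with the 9 members in colour. The members with a mean above 100 lie between -0.22 and 0.54, and the wider values of miR-320d, miR-1226-5p and miR-877-3p come at means where all miRNAs scatter widely.

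hsa-miR-320a, the most abundant of its family, had a mean of 6107 in untreated cells and 6809 after arsenite, and a log2 fold change of 0.16 (DESeq's p was 0.497 and its adjusted p 1 in the authors' deposited table). The spread over replicates is not known for it. Among 933 mature miRNAs with reads in both treatments, the 3 with the most similar pair of means were miR-181d, miR-23a-3p and miR-330-5p, at distances of 0.056, 0.074 and 0.11 on the log2 scale over the 2 treatments. Their log2 fold changes were 0.23, 0.15 and 0.04. With only 2 treatments this likeness describes level more than pattern.

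hsa-miR-320b was the second most abundant of the family. Its normalized reads in untreated libraries 1 to 4 were 362, 429, 590 and 931, a mean of 578 ± 254 (SD, n = 4). With arsenite they were 659, 927, 1098 and 672, a mean of 839 ± 212 (SD, n = 4). All 4 arsenite libraries lay above the untreated median of 509.6, but untreated library 4 lay above 3 of them, so the groups overlapped. The authors' log2 fold change was 0.54 (DESeq's p was 0.0828 and its adjusted p 1 in the authors' deposited table). It was the value nearest to the unadjusted threshold among the members, and 6 of the 188 mature miRNAs with means of 100 to 1000 had a larger log2 fold change.

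Within the closely correlated set miR-320b had 362 and 429 untreated and 659 and 672 with arsenite, which is 1.68-fold. Pairs of libraries that did not overlap were common there: 23.0% of the 408 mature miRNAs lay wholly higher with arsenite in that set and 23.0% wholly lower. In the other set, miR-320b had 590 and 931 untreated and 927 and 1098 with arsenite, 1.33-fold, and the treatments overlapped. Without untreated library 4, the highest untreated one, the log2 fold change rose to 0.87 and the treatments no longer overlapped. That separation follows from the choice of library. Without untreated library 1 the log2 fold change was 0.37.

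hsa-miR-320c and hsa-miR-320d were rare, and few reads stood behind them. miR-320c had 39 to 103 reads in an untreated library and 25 to 97 with arsenite. Its normalized reads were 82.6, 82.5, 37.4 and 74.8 in untreated libraries 1 to 4 and 50.1, 92.3, 78.8 and 31.5 with arsenite. The treatments overlapped over nearly their whole range, and the log2 fold change was -0.13 (DESeq's p was 0.837 and its adjusted p 1 in the authors' deposited table). The sets of libraries disagreed in direction. In the closely correlated set both arsenite libraries lay below both untreated ones (log2 fold change -1.02), as for 23.0% of the 408. In the other set both lay above (0.61), as for 14.2% of the 408. Leaving out 1 library turned the sign in 1 case, to 0.09 without arsenite library 4.

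miR-320d had the largest log2 fold change of the members, 1.03 (DESeq's p was 0.128 and its adjusted p 1 in the authors' deposited table). Untreated libraries 1 to 4 held 21, 14, 7 and 63 reads, or 16.8, 12.7, 6.72 and 76.0 normalized, a mean of 28.1 ± 32.2 (SD, n = 4). With arsenite there were 61, 41, 84 and 41 reads, or 46.3, 39.0, 92.0 and 51.7 normalized, a mean of 57.2 ± 23.7 (SD, n = 4). Untreated library 4 stood far above the other 3, and with it the treatments overlapped. A library this far from the other 3 of its group was found in 3 of the 14 groups of the resolved members and in 5.15% of the 816 groups of all 408 mature miRNAs. The 14 include the groups of miR-877-3p, whose mean is below the minimum of 20 set for the 408. Without untreated library 4 the untreated mean was 12.1 ± 5.09 (SD, n = 3), every arsenite library lay above every untreated one, and the ratio of means was 4.74-fold. miR-320b and miR-320d were the 2 of the 7 resolved members for which the treatments separated without that library, as 3.43% of the 408 mature miRNAs did. It held the highest untreated value of both members, so the separation follows from leaving it out. The share is for leaving it out for every miRNA, so it does not measure how rare this is. In the closely correlated set miR-320d was 3.32-fold higher with arsenite, and in the other set 1.58-fold with overlap. Of the 197 mature miRNAs with means of 20 to 100, 9 had a larger log2 fold change than the 1.03 over all libraries.

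Because reads can be split between near-identical names, the family was also summed. miR-320a to miR-320d together had 6783 untreated and 7768 with arsenite, a log2 ratio of 0.20, of which miR-320a made up most. miR-320b, miR-320c and miR-320d together had 461, 524, 634 and 1082 normalized reads in untreated libraries 1 to 4 and 755, 1058, 1269 and 755 with arsenite. Again untreated library 4 was level with the arsenite libraries and the other 3 lay below all of them. Most of this sum was miR-320b, with means of 578 of 675 untreated and 839 of 959 with arsenite. The pattern is therefore that of miR-320b and not a second observation. After division by the size factors, untreated library 4 held the highest value of the 4 untreated libraries for 24.3% of the 408 mature miRNAs. That division evens out the libraries, so the share says nothing on why these names were high there, which was not tested. miR-320e had means of 36.7 and 39.5, and miR-4429, with the same seed as miR-320b, 87.1 and 60.6. miR-320a outnumbered miR-320b by 10.6 to 1 untreated and 8.12 to 1 with arsenite, and miR-320d by 218 and 119 to 1. For miR-320c the ratio went the other way, from 88.1 untreated to 107.8 with arsenite.

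**Figure D3:**
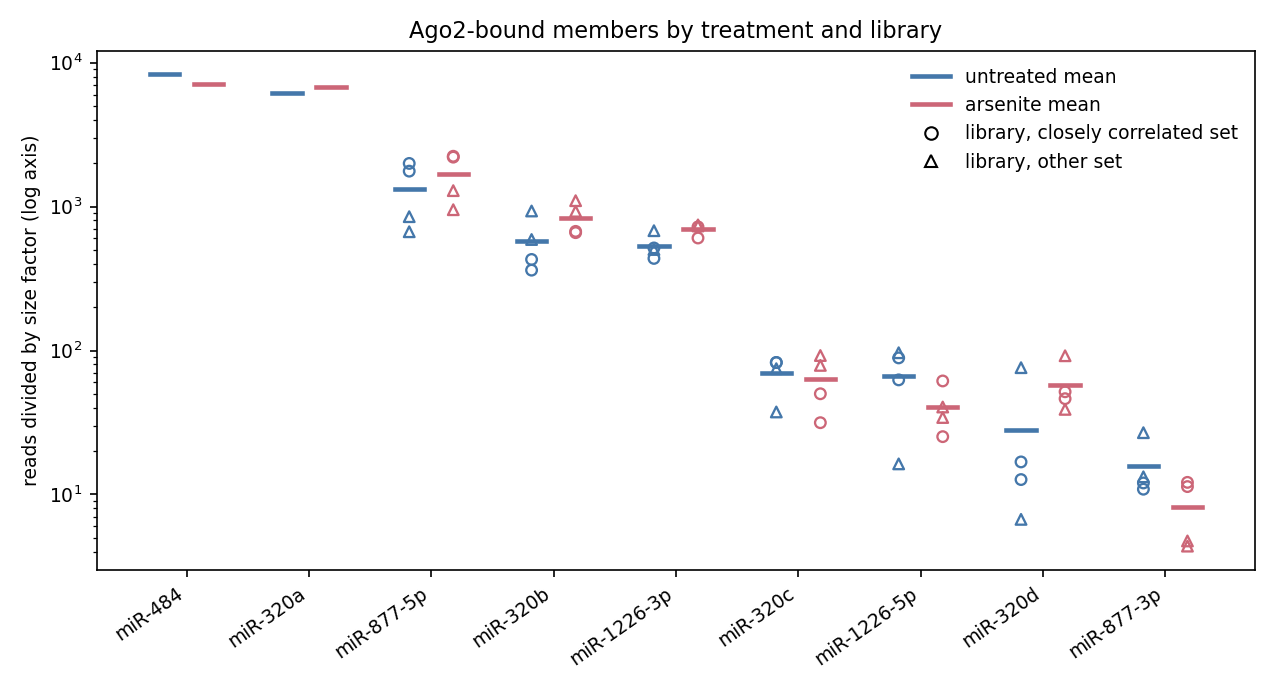
Reads divided by size factor (log axis) for the 9 members, with the authors' means as bars for untreated and arsenite and open symbols for the recovered libraries, circles for the closely correlated set and triangles for the other set. The treatments overlap in all 7 members with recovered libraries, and for miR-320d a single untreated triangle lies at 76.0 while the rest lie at 6.72 to 16.8.

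hsa-miR-484, whose hairpin lies beside NDE1, was the most abundant member. Its mean was 8283 in untreated cells and 7103 after arsenite, with a log2 fold change of -0.22 (DESeq's p was 0.271 and its adjusted p 1 in the authors' deposited table). Its direction was opposite to that of miR-320a, the other member reported to have a capped precursor. Of the 116 mature miRNAs with means of 1000 to 10000, 17 had a lower log2 fold change. The most similar pairs of means were those of miR-140-5p, miR-455-3p and miR-33b-5p, at distances of 0.16, 0.16 and 0.18, with log2 fold changes of -0.44, -0.37 and -0.30.

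The mirtron miR-877, from an intron of ABCF1, was almost wholly on Ago2 as its 5p arm. hsa-miR-877-5p had 1761, 1993, 850.4 and 668 normalized reads in untreated libraries 1 to 4, a mean of 1318 ± 656 (SD, n = 4), and 2204, 950.5, 1290 and 2235 with arsenite, a mean of 1670 ± 650 (SD, n = 4). The level followed the sets of libraries more than the treatment: the closely correlated libraries lay at 1761 to 2235 and the others at 668 to 1290. Over all libraries the treatments overlapped, and the log2 fold change was 0.34 (DESeq's p was 0.533 and its adjusted p 1 in the authors' deposited table). It was 0.12, or 1.09-fold, without untreated library 4 and 0.61 without untreated library 2. Within each set both arsenite libraries lay above both untreated ones, by 1.18-fold in the closely correlated set and 1.48-fold in the other. That held in both sets for 2 of the 7 resolved members, miR-877-5p and miR-1226-3p, and for 3.68% of the 408 mature miRNAs. The members were chosen from this contrast, and the split was made after the data had been examined. Nothing is therefore read from that count.

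The 3p arm of miR-877 was near the floor of the data. miR-877-3p had 15, 12, 28 and 11 reads in untreated libraries 1 to 4 and 16, 5, 4 and 9 with arsenite. Normalized, these were 10.9 to 26.9 untreated and 4.38 to 12.1 with arsenite, and the treatments overlapped. The log2 fold change of -0.95 (DESeq's p was 0.539 and its adjusted p 1 in the authors' deposited table) was uneven between the sets of libraries, with -2.14 in the other set, where both arsenite libraries lay below both untreated ones (18.6% of the 408). In the closely correlated set the log2 fold change was 0.04. Reads of the 5p arm outnumbered those of the 3p arm by 31.6 to 183 times in untreated libraries and by 181.5 to 294.5 times with arsenite.

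The mirtron miR-1226, from an intron of the RNA helicase gene DHX30, favoured the opposite arm. miR-1226-3p was the steadiest of the resolved members, with 515.5, 436, 679.5 and 503 normalized reads in untreated libraries 1 to 4 (534 ± 103, SD, n = 4) and 605, 733, 746 and 723 with arsenite (701 ± 65.1, SD, n = 4). Of the 4 arsenite libraries 3 lay above every untreated one, and arsenite library 1 lay below untreated library 3. The log2 fold change was 0.39 (DESeq's p was 0.204 and its adjusted p 1 in the authors' deposited table). It was 0.48 in the closely correlated set and 0.32 in the other set, with the treatments apart in each. Of the 408 mature miRNAs, 3.68% lay wholly higher with arsenite in both sets. With any 1 library left out, the log2 fold change of miR-1226-3p was 0.31 to 0.53. Without untreated library 3 the treatments separated over all the remaining libraries, as they did for 2.21% of the 408 mature miRNAs. They also separated without arsenite library 1 (1.96% of the 408). Untreated library 3 and arsenite library 1 were the ones that made the treatments overlap, so separation without either follows from that choice. The shares are for leaving out the same library for every miRNA, so they do not measure how rare this is.

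miR-1226-5p had 62.5, 88.9, 16.3 and 96.5 normalized reads in untreated libraries 1 to 4 and 61.5, 34.3, 40.5 and 25.2 with arsenite. All arsenite values lay within the untreated range, and the log2 fold change was -0.71 (DESeq's p was 0.382 and its adjusted p 1 in the authors' deposited table). It was -0.80 in the closely correlated set, where both arsenite libraries lay below both untreated ones, as they did for 23.0% of the 408 mature miRNAs. In the other set it was -0.59, and the treatments overlapped. With any 1 library left out it was -1.03 to -0.47. The direction was opposite to that of the 3p arm of the same hairpin. The ratio of 3p to 5p reads was 8.24, 4.91, 41.6 and 5.21 in untreated libraries 1 to 4 and 9.84, 21.4, 18.4 and 28.6 with arsenite. Untreated library 3, with 17 reads of the 5p arm, had the highest ratio of all, so the treatments overlapped in this ratio too.

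**Figure D4:**
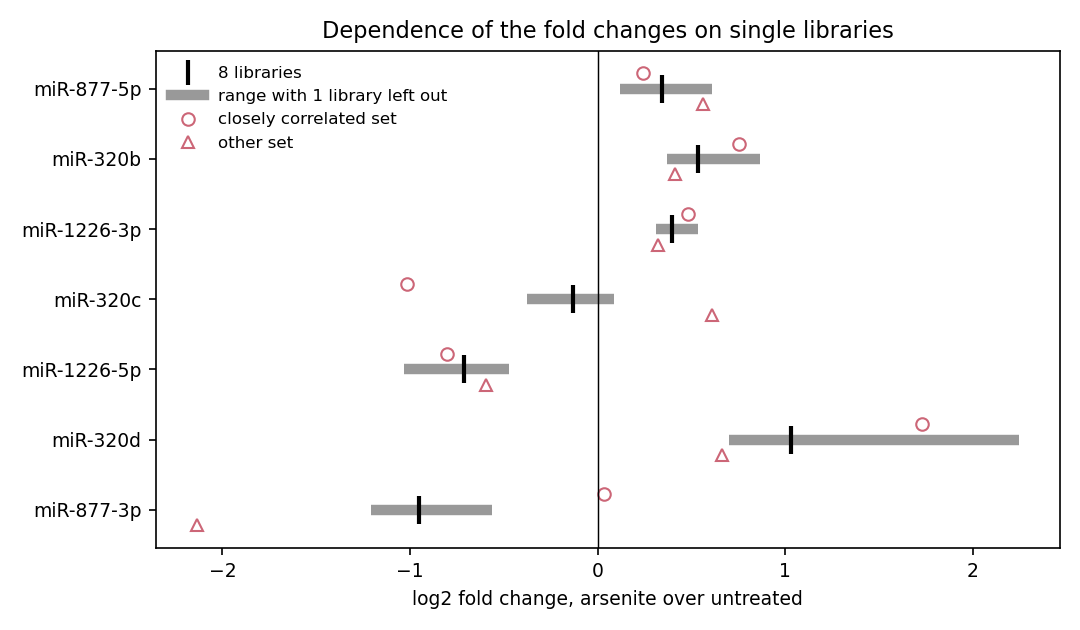
Log2 fold change of arsenite over untreated for the 7 members with recovered reads: over all 8 libraries (tick), the range when any 1 library is left out (grey bar), and within the closely correlated set (circle) and the other set (triangle). miR-320b, miR-1226-3p, miR-877-5p and miR-320d stay above 0 in all of these, miR-1226-5p stays below 0, and miR-320c and miR-877-3p have values on either side. The share of all mature miRNAs that keep their sign in this way was not computed, so nothing is read from it.

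Fragments of the member hairpins outside the mature parts were nearly absent. The table listed 1, a piece upstream of mature miR-320a, with 2, 5, 0 and 0 reads in untreated libraries 1 to 4 and 7, 0, 0 and 2 with arsenite. No entry was listed for a second arm of the miR-320 hairpins or of miR-484.

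Some other miRNAs that have been reported to bypass a step of the usual route were looked up by name, and these were at low levels. The lists were not meant to be complete, so nothing is said of miRNAs outside them. Of 6 other mirtron hairpins (miR-1224, miR-1227, miR-1229, miR-1236, miR-1237 and miR-1238), 5 had a mature entry, and only miR-1224-5p and miR-1229 reached a mean of 20, with log2 fold changes of -0.32 and 0.26. Of 3 hairpins that lie in small nucleolar RNAs, miR-664 had mature entries, with 0.32 for its 3p and -0.12 for its 5p arm, and miR-1248 and miR-1291 had fragments of the stem only. miR-451a, which is cut by Ago2 itself instead of Dicer, had 0.50 at means of 26.4 and 37.4. None of these had an adjusted p under 0.05 in the authors' deposited DESeq table. For comparison, the Drosha-dependent let-7 family with miR-98 had 13 entries with a mean of at least 20, of which 11 were above 0, and their median log2 fold change was 0.17. The median of the 8 members (0.25, or 0.14 without untreated library 4) and that of let-7 were not tested against each other.

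The band of Ago2 targets gives a view of the mRNAs that share a locus with the members. The authors' peak table, on hg19, lists 24041 peaks each with the authors' log ratio between arsenite and untreated cells, whose log base and normalizer are not stated. It was read for 4 genes, ABCF1, DHX30, POLR3D and NDE1. Peaks in the host and neighbour genes of miR-320b, miR-320c and miR-320d were not looked up. The 9 peaks listed in these 4 genes had log ratios above 0, where 70.3% of all peaks did, and their median was 1.33 beside 0.65 for all peaks. Peaks of the same gene are not separate observations, and the log ratios were not set against mRNA levels here. ABCF1, a translation factor gene and host of miR-877, had 2 peaks with 2.15 and 1.83, both in its 3'UTR and overlapping. DHX30, host of miR-1226, had 6 peaks with a median of 1.07 (0.26 to 1.68). POLR3D, an RNA polymerase III subunit gene, had 1 peak with 0.36, and NDE1 had no listed peak. The intron that yields a mirtron is not part of these exonic peaks.

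Genes of the processing route differed among themselves in that table. DROSHA had 5 peaks, none above 0, with a median of -0.11, and DGCR8 had 7 peaks with a median of -1.26 and 1 above 0. DICER1 had 24 peaks with a median of 1.56 and 21 above 0. XPO1 had 19 with a median of 0.12 and 11 above 0, and XPO5 had no listed peak. EIF2C2, the older name of the Ago2 gene, had 7 with a median of 1.44 and 5 above 0. Over all peaks the median was 0.65, and 70.3% were above 0. Peaks were counted for matches to the seeds of 50 miRNA families, and 0 of these families held a member. The summed mean of miR-320a to miR-320d was 7275 and the mean of miR-484 was 7693 over both treatments, and each was below that of every one of the 50 families, the smallest of which had 11540. Whether Ago2 moved at target sites of the members was not analysed here.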

How the data were processed

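LO band CLIP libraries from 4 untreated and 4 arsenite-treated replicates stand behind 1 deposited miRNA table, and mRNA CLIP libraries behind 1 peak table. The RNA-seq data were not used. Bowtie 0.12.8, TopHat, DESeq and hg19 appear, with no role or order, in the submitters' processing notes. Entries are named after miRBase 18, per the file headers. The authors' means per treatment are signal values: read counts over a size factor, averaged over 4 libraries. The fold (ratio) of the means, its log2 value, and the p-values and adjusted p-values are the authors' deposited DESeq results. The peak values are scores deposited by the authors, an average level and a treatment ratio, both logs of unstated base. The tables have 0 columns of single samples.

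Each mean is a sum of whole reads times 4 steps, 1 per library. The steps were read from the lowest values and refined by least squares. For means under 1700, all combinations of whole reads were searched, and one was accepted only if it alone met the 15 printed digits of both means and their log2 ratio. This resolved 1044 of 1213 entries, among them all 1033 with means under 1300. Normalized reads are reads divided by the size factor. Size factors recomputed by medians of ratios over 474 resolved entries without zeros lay within 2.61% of those from the steps. On data simulated from the same 1213 means (2085 entries under 1700 in 2 runs, with the steps given), 2065 were resolved, 0 of them wrongly, and of 28 between 1300 and 1700, where miR-877-5p lies, 14 were resolved. The total depth of a library is not known, since the abundant entries were not resolved.

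The planned count test was not run, since the members were chosen from this contrast and reads of abundant entries are lacking. Members and lists were chosen with earlier results of these data known. Named entries were all members and their fragments, the 3 nearest miRNAs to miR-320a and to miR-484, and fixed lists. miR-4429, miR-3155a and miR-3155b were added for their seeds. A mean of at least 20 was required for counts over miRNAs. The limit of 1.2-fold was set with the data in view, in place of 1.25-fold, which gave the same 4 members higher and 1 lower, beside 17.0% and 20.6% of the 577 mature miRNAs. Python 3.11.15, numpy 2.4.6, pandas 2.3.3, scipy 1.17.1, numba 0.67.0 and matplotlib 3.10.9 were used.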

Additional observations from a re-analysis of the deposited data

Results flagged for a closer look

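In 3 of the 14 groups of 4 libraries of the resolved members, 1 library lay far from the other 3 by Dixon's criterion of gap over range. About 1 group in 20 is marked by chance, and 5.15% of the groups of the 408 mature miRNAs with recovered reads were. For miR-320d untreated library 4 had 76.0 normalized reads, with a gap over range of 0.854. The level of miR-877-3p was 26.9 in untreated library 3 (0.851), which rests on 28 reads. miR-1226-3p had 605 in arsenite library 1, below the other 3 (0.837).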

How the results depend on the processing

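No paired analysis was possible because the columns carry no replicate numbers and the recovered libraries cannot be matched to them. The median log2 fold change of the members with a mean of at least 20, 0.25, was 0.0596 without the miR-320 members and 0.14 to 0.26 with 1 library left out, with unresolved members held at their means. It was 0.16 without a minimum mean, 0.34 with a minimum of 100, 0.25 with a pseudocount of 10 and 0.23 when centred on all mature miRNAs. The summed log2 ratio of miR-320a to miR-320d, 0.20, was 0.51 without miR-320a. Of the 7 resolved members, 0 had every arsenite library above every untreated one, and leaving out 1 library gave 0 to 2. Within the 4 closely correlated libraries 4 did so (23.0% of the 408 mature miRNAs) and 2 had both arsenite libraries below (23.0%), and within the other 4 libraries 3 did so (14.2%) and 1 lay below (18.6%). With 1 peak per gene, the median log ratio of ABCF1, DHX30 and POLR3D was 1.60 instead of 1.33. The cause was not tested in any of these. Of 88 recomputed values of single members 5 moved by more than the spread between libraries: miR-320d to 2.24 without untreated library 4, miR-320c to -1.02 and 0.61 and miR-877-3p to 0.04 and -2.14 within the sets. The leave-one-out and within-set values were chosen with the data in view, and edgeR with a replicate block was not run. Members with means over 1700 have no known spread.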
